A study of Mus musculus with 6 samples.

Results

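The microRNA miR-22 was followed through both of its mature arms, mmu-miR-22-3p and mmu-miR-22-5p (miR-22-3p and miR-22-5p below), in the dorsal striatum of mice after precipitated nicotine withdrawal. The arms were taken by name, and they made up 2 of the 756 mature miRNAs in the table. miR-22 had been put forward because its 3p arm was abundant and lower in withdrawal in this same contrast, so the differences of both arms between the groups are given below as descriptions, with no p-value. Mice of the strain C57BL/6N, aged 7 weeks, formed both groups. The withdrawal group (n = 3) received 0.5 mg/kg nicotine intraperitoneally on 3 days, once a day, and then, 24 hours after the last nicotine dose, the nicotinic receptor antagonist mecamylamine at 3.0 mg/kg. The control group (n = 3) was injected with saline. Tissue was cut out on a cryostat 1 week after the final injection, so the comparison covers nicotine, mecamylamine and the following week together. Each library was taken as 1 mouse; where that does not hold, the errors and p-values hold only technical spread.

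MicroRNAs are short RNAs that guide Argonaute proteins to messenger RNAs, mostly by pairing of their seed, the bases 2 to 8, with sites in 3′ untranslated regions. The hairpin precursor is cut to a duplex of a 5p and a 3p arm, and usually one of them is kept in Argonaute while the other is degraded. miR-22 is known from heart and skeletal muscle, where it acts on growth and metabolism, from blood cell development, and from neurons, where raising it was protective in cell models of Huntington disease, an illness of the striatum. Its 3p arm is the one usually studied.

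The sequences of both arms and of their hairpin are shown because the results below turn on the difference between the arms. They are from RefSeq (GRCm38.p6), in which 654 of the 756 names had a mature sequence. The seed is in capitals in each mature arm, and both mature arms are in capitals in the hairpin.
miR-22-5p: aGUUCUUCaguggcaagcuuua
miR-22-3p: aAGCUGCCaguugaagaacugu
mir-22 hairpin: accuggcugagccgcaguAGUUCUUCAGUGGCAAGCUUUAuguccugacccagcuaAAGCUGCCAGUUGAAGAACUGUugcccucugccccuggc
The hairpin lies at chr11:75463716-75463810 on the plus strand (GRCm38.p6). It falls inside exon 2 of the long non-coding RNA Mir22hg in both of its GENCODE transcripts, so that the precursor is exonic and not intronic. Both arms are 22 bases long, with 16 bases between them in the hairpin. The predicted minimum free energy fold of the hairpin (-41.9 kcal/mol, ViennaRNA) paired the arms over 19 base pairs, 8 of them G-C, 10 A-U and 1 G-U. Of the 1679 mature names in the RefSeq table, 0 others shared bases 2 to 8, or even 2 to 7, with miR-22-3p. With miR-22-5p, 0 shared bases 2 to 8, and 2 (miR-6935-3p and miR-7092-3p) shared bases 2 to 7; neither had a row in the table. Among the measured miRNAs with a RefSeq sequence, the 3p seed thus belonged to miR-22-3p alone.

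The messenger RNAs of 3 genes known from human or rodent cells as targets of miR-22-3p are shown for what the seed pairs with. These are Hdac4, a histone deacetylase, Rcor1, a corepressor that works with the neuronal silencer REST, and Rgs2, a regulator of G protein signalling. In the longest annotated 3′ untranslated region of each (GENCODE, GRCm38), the seed match GGCAGCT was searched on the transcript strand and is in capitals.
Hdac4, chromosome 1: ttgcacgccaaactcGGCAGCTt
Rcor1, chromosome 12, first match: ccgagccccaacaatGGCAGCTc
Rcor1, chromosome 12, last match: cctcagactgactaaGGCAGCTg
Rgs2, chromosome 1: aaaaactgtcttgcgGGCAGCTa
Rcor1 held 2 matches and the other genes 1 each. The match was also present in 25.6% of the 3283 3′ untranslated regions with lengths in the range of these genes (2342 to 4568 bases), and in 12.7% of all 20966 searched. No messenger RNA was measured in these samples, so these sites are a description of the sequence alone.

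Values are normalized reads, meaning the reads counted for a miRNA after scaling by a factor for each library. All values of a library were whole multiples of one step, and with 1 read per step the libraries held between 40111870 and 53262896 miRNA reads. On that footing miR-22-3p rested on 2254329 to 2807332 reads per library, with a counting error of at most 0.0666%. miR-22-5p rested on 2761 to 3523 reads, with a counting error of at most 1.90%. The reads carry no molecular identifiers, so these errors cover counting only. As a check of the tissue, the neuronal miR-124-3p stood between 341577 and 368984 normalized reads and the glial miR-338-3p between 77293 and 89867, so both neural marker miRNAs were present in every library.

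miR-22-3p was one of the most abundant miRNAs of the dorsal striatum and stood lower in withdrawal. In the saline libraries 1, 2 and 3 it was at 2553083, 2495360 and 2632658 normalized reads, and in the withdrawal libraries 1, 2 and 3 at 2272055, 2237361 and 2258827. Each withdrawal library lay below each saline library, and the withdrawal libraries lay close together. The means were 2560367 ± 68939 and 2256081 ± 17509 (SD, n = 3 each), a ratio of 0.881 and a log2 difference of -0.18 ± 0.03 (withdrawal minus saline, SE of the limma fit over all miRNAs, on log2(value + 1)). The groups did not overlap in 27.6% of the 699 miRNAs tested, and withdrawal lay below saline in 14.6%. As a share of all normalized reads, miR-22-3p took 5.65 ± 0.108% in saline and 5.09 ± 0.0278% in withdrawal.

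miR-22-5p, the rare arm of the same hairpin, was at 3127, 2980 and 3019 normalized reads in the saline libraries 1, 2 and 3, and at 3220, 3052 and 2939 in the withdrawal libraries 1, 2 and 3. The groups overlapped, and the lowest and the highest library both belonged to withdrawal. The means were 3042 ± 76.2 and 3070 ± 141 (SD, n = 3 each), with a log2 difference of 0.01 ± 0.04. The 95% interval of this difference ran from -0.08 to 0.11 in limma.

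**Figure D1:**
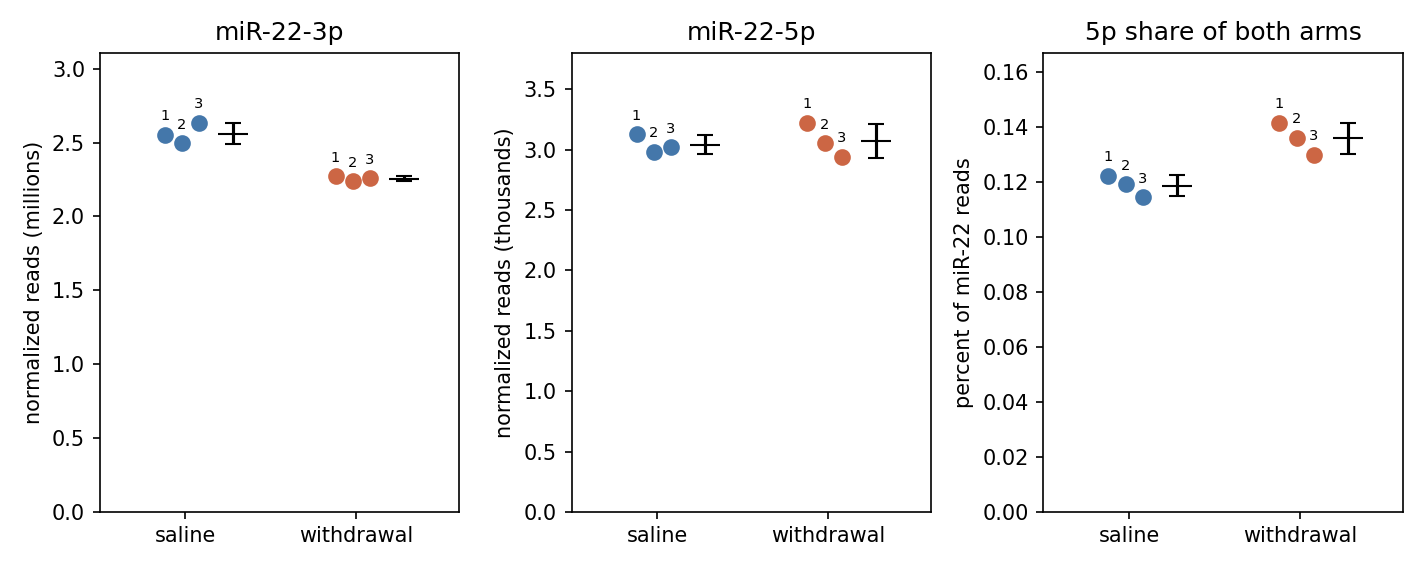
Normalized reads of miR-22-3p (left) and miR-22-5p (middle) and the 5p share of all miR-22 reads in percent (right) in each library, numbered 1 to 3 within a group; bars give the mean ± SD (n = 3), and each axis starts at 0. miR-22-3p is lower in each withdrawal library, miR-22-5p overlaps between the groups, and the 5p share is higher in each withdrawal library.

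The balance of the arms moved accordingly. This ratio is taken within a library and does not depend on the size factors. The 5p arm made up 0.122%, 0.119% and 0.115% of all miR-22 reads in the saline libraries 1, 2 and 3, and 0.142%, 0.136% and 0.130% in the withdrawal libraries 1, 2 and 3. All withdrawal libraries lay above all saline libraries. The mean share was 0.119 ± 0.00391% in saline and 0.136 ± 0.00579% in withdrawal (SD, n = 3 each), which corresponds to 842 ± 27.98 and 736 ± 31.5 reads of the 3p arm for each read of the 5p arm. On the log2 scale the ratio of 5p to 3p was 0.19 ± 0.05 higher in withdrawal (SE of limma over all arm ratios). Since the ratio holds the 3p arm that was chosen for its difference, it is not a separate line of evidence.

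Set against other hairpins, miR-22 had very unequal arms, while larger shifts of the ratio were seen in many. Both arms were tested in 203 precursors, of which 17 had more unequal arms than miR-22, and the median precursor differed by 3.79 between its arms on the log2 scale, against 9.62 for miR-22 (written as sizes, without the sign). The shift of the ratio was larger in either direction in 51 of the 203. The groups did not overlap in 27.1% of the arm ratios, and withdrawal lay above saline in 14.8%. In limma with Benjamini-Hochberg adjustment 0 of the 203 arm ratios passed (0.00%), with 33 at an unadjusted p under 0.05 and a smallest adjusted p of 0.129. This fit had no trend of variance on level, unlike that of the single miRNAs below. Without the trend, 0 of the 699 single miRNAs passed as well (limma, smallest adjusted p = 0.141), so the counts of the unlike fits are not comparable.

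Over all 699 miRNAs 46 passed (6.58%, limma with Benjamini-Hochberg adjusted p under 0.05), 21 of them higher (3.00%) and 25 lower (3.58%). Apart from miR-22, 30 of these were arms whose partner was also tested, and the partner passed in 0 of the 30. Since 6.58% of all miRNAs passed, few of 30 would be called at that share, and nothing is read from the count. In 14 of them the partner's difference had the same sign. A partner that misses the threshold may still differ, and the rarer arm of a pair rests on fewer reads. The partner was the rarer arm in most of these pairs, but not in all, as in miR-485 and miR-153. Among the 18 lower ones the partner's log2 difference ranged from -0.36 to 0.28, with a median of 0.02. The lowest was that of miR-497a, whose arms stood at -0.38 (5p, called) and -0.36 (3p, not called).

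**Figure D2:**
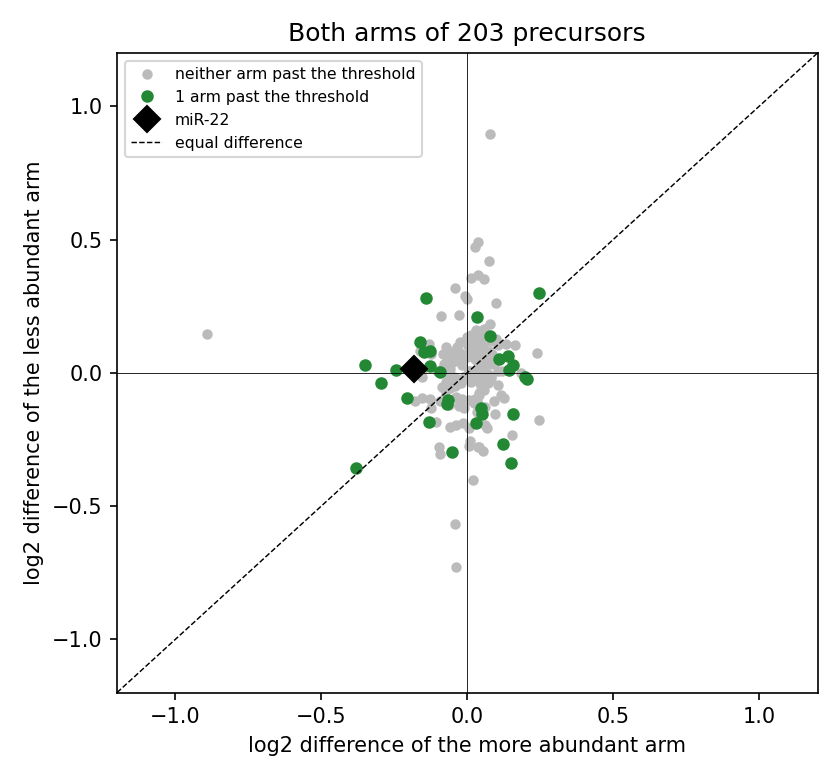
Log2 difference (withdrawal minus saline) of the more abundant arm of each of 203 precursors on the x axis against that of the less abundant arm on the y axis; green points have 1 arm past the threshold, the diamond is miR-22, the dashed line marks equal differences, and 2 precursors lie outside the axes. miR-22 lies at -0.18 for its 3p arm and 0.01 for its 5p arm, off the line of equal differences.

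In the order of abundance, miR-22-3p stood among the first 5 in every library. Because levels of different miRNAs also reflect how well each is ligated and copied, the order holds for these libraries. By the mean over all 6 libraries miR-22-3p came at place 5, behind miR-127-3p, an imprinted miRNA of the Dlk1-Dio3 region, miR-181a-5p, a brain and immune miRNA, miR-30a-5p and miR-26a-5p, and ahead of miR-9-5p, a miRNA of neural development. It stood at place 5 in all libraries except saline library 3, where it stood at place 3. Its range over the libraries overlapped with those of miR-30a-5p and miR-26a-5p, and lay apart from those of miR-181a-5p above (3822329 to 4376180) and miR-9-5p below (1274118 to 1436949).

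The ratio to these neighbours, which again is free of the size factors, separated the groups. For each read of miR-30a-5p there were 0.956, 0.969 and 1.04 reads of miR-22-3p in saline libraries 1, 2 and 3, and 0.823, 0.795 and 0.803 in withdrawal. miR-30a-5p itself rose from 2592619 ± 70404 to 2795633 ± 31183 (log2 difference 0.11 ± 0.03, limma, adjusted p = 0.0468), so this ratio also holds the change of miR-30a-5p. Against miR-26a-5p the ratio was 0.983, 0.983 and 1.01 in saline and 0.933, 0.932 and 0.913 in withdrawal. miR-26a-5p stood at 2579579 ± 34528 and 2437100 ± 37194 (-0.08 ± 0.03, limma, adjusted p = 0.108). In both ratios all withdrawal libraries lay below all saline libraries. Since both hold miR-22-3p, which was chosen for its difference, they are not a separate line of evidence.

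Among the most abundant miRNAs, miR-22-3p lay near the lower end of the differences. The 20 most abundant others had log2 differences from -0.25 to 0.11, with a median of 0.00, as over all 699. Of these 20, miR-30a-5p rose and 3 fell in limma: miR-138-5p, a neuronal miRNA that limits dendritic spine size (-0.25 ± 0.05, adjusted p = 0.00934), miR-434-3p of the Dlk1-Dio3 region (-0.24 ± 0.05, adjusted p = 0.0119) and miR-411-5p of the same region (-0.09 ± 0.03, adjusted p = 0.0491). The count is to be read against 14.6% called among the 157 miRNAs of at least 10000 normalized reads. Only miR-138-5p and miR-434-3p lay below miR-22-3p, both among these 20 and among the 157. Over all 699 tested, 73 (10.4%) lay below it. Since miR-22-3p was put forward as abundant and lower, its place among abundant miRNAs is a description. In saline libraries 1, 2 and 3 miR-138-5p was at 522601, 499649 and 479331 and in withdrawal at 451623, 429260 and 387124, so its withdrawal libraries were spread more widely than those of miR-22-3p.

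**Figure D3:**
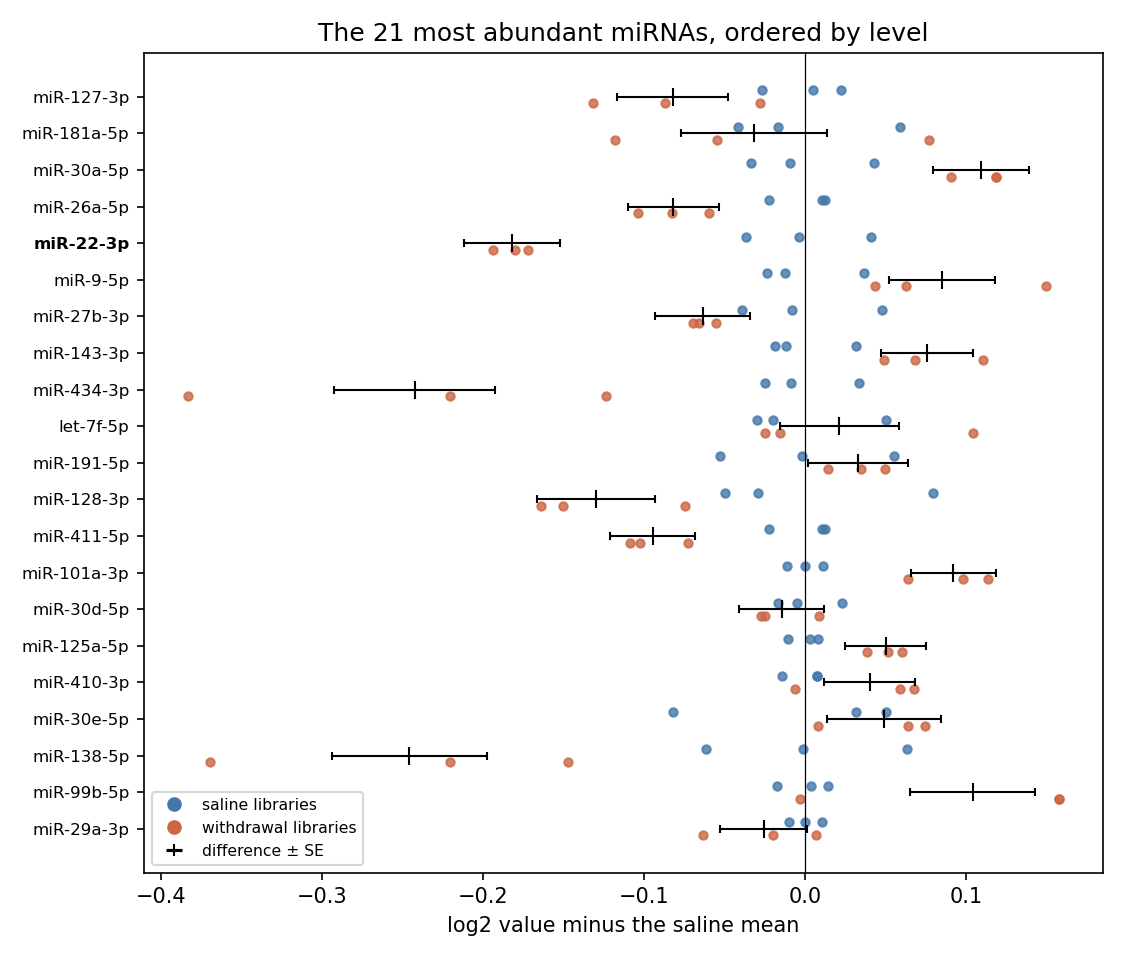
Log2 value of each library minus the saline mean (x axis) for the 21 most abundant miRNAs, from the highest level at the top; blue points are saline libraries, orange points withdrawal libraries, and the black bar is the difference ± SE of the limma fit. The withdrawal libraries of miR-22-3p sit close together at about -0.18, while those of miR-434-3p and miR-138-5p spread more.

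In reads, miR-22-3p made up 17.6% of the summed decreases in withdrawal. This share depends on the size factors. It is a description, since miR-22-3p was put forward as abundant and lower. The mean normalized total was 45306140 ± 388929 in saline and 44287150 ± 172779 in withdrawal (SD, n = 3 each). miR-22-3p differed by -304286 normalized reads, which ranked at place 2 among all decreases after miR-127-3p (-523302) and before miR-434-3p (-157589) and miR-26a-5p (-142479).  miR-127-3p, whose larger number comes with a higher level, had a log2 difference of -0.08 ± 0.03 and did not pass (limma, adjusted p = 0.174).

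**Figure D4:**
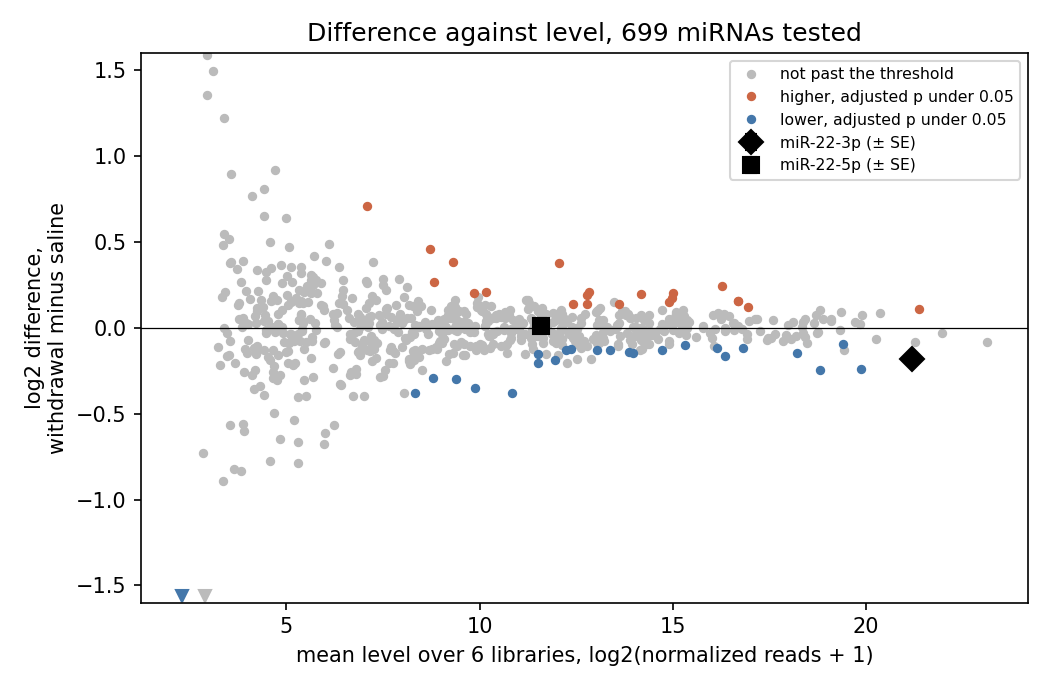
Log2 difference (withdrawal minus saline) against mean log2 level for the 699 miRNAs tested; orange and blue points passed the threshold as higher and lower, the diamond and the square are the arms of miR-22 ± SE, and triangles mark 2 miRNAs beyond the axis. miR-22-3p lies at the right edge at -0.18 and miR-22-5p in the middle of the cloud at 0.01.

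Ratios to every other miRNA showed the same contrast between the arms. Relative to 392 of the 698 other tested miRNAs (56.2%), miR-22-3p was lower in each withdrawal library than in each saline library, and relative to 6 it was higher. For miR-22-5p the numbers were 36 lower (5.16%) and 71 higher. The median tested miRNA was lower against 4.44% of the others, and 18 miRNAs were lower against more of them than miR-22-3p was. These counts use the contrast that miR-22-3p was chosen on and describe it without testing it.

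Around miR-22-5p, at place 242 by mean level, stood miRNAs whose ranges all overlapped with its own. Of the 3 just above it, miR-758-3p (-0.01 ± 0.04), miR-210-3p, induced by low oxygen (0.07 ± 0.04), and miR-124-5p, the rare arm of neuronal miR-124 (0.02 ± 0.04), did not pass (limma adjusted p = 0.926, 0.317 and 0.833). Of the 3 just below, miR-322-5p of the miR-15/16 seed family fell from 3152 ± 92.8 to 2731 ± 65.8 (-0.21 ± 0.04, limma, adjusted p = 0.00885) and miR-153-5p, encoded in genes of secretory vesicles, from 3094 ± 124 to 2779 ± 27.8 (-0.15 ± 0.04, limma, adjusted p = 0.0396). miR-324-3p stood at -0.02 ± 0.04 (limma, adjusted p = 0.871).

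The 5 miRNAs whose values over the 6 libraries were most like those of miR-22-3p were found by the root mean square difference of their log2 values, each centred on its own mean. They were miR-485-5p, a synaptic miRNA (0.02), miR-431-5p (0.02), miR-1264-5p from an intron of the serotonin receptor gene Htr2c (0.02), miR-338-3p of oligodendrocytes (0.03) and miR-421-3p (0.03). Likeness to a miRNA chosen for its difference favours others that differ in the same way, and all 5 were lower in each withdrawal library. miR-485-5p was at 4216, 4187 and 4275 in saline and at 3728, 3645 and 3744 in withdrawal. miR-431-5p was at 16586, 16236 and 17460 in saline and at 15235, 14883 and 15198 in withdrawal. In both, as in miR-22-3p, saline library 3 was the highest and withdrawal library 2 the lowest. Both were picked by likeness over these same 6 libraries, so the shared order is favoured by the choice.

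For miR-22-5p the most alike were miR-140-5p of cartilage, miR-29c-3p, miR-124-3p, miR-540-5p and let-7b-3p, with root mean square differences of 0.02 to 0.03. None of these 5 passed in limma, the smallest adjusted p being 0.281 for miR-124-3p. miR-140-5p was at 2112, 1993 and 1975 in saline and at 2099, 2038 and 1923 in withdrawal, with library 1 the highest in each group, as for miR-22-5p. That shared order is likewise favoured by the choice. Between the arms themselves the root mean square difference was 0.11. Among the 698 other tested miRNAs, miR-22-5p came at place 229 in likeness to miR-22-3p. In likeness to miR-22-5p, miR-22-3p came at place 380.

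**Figure D5:**
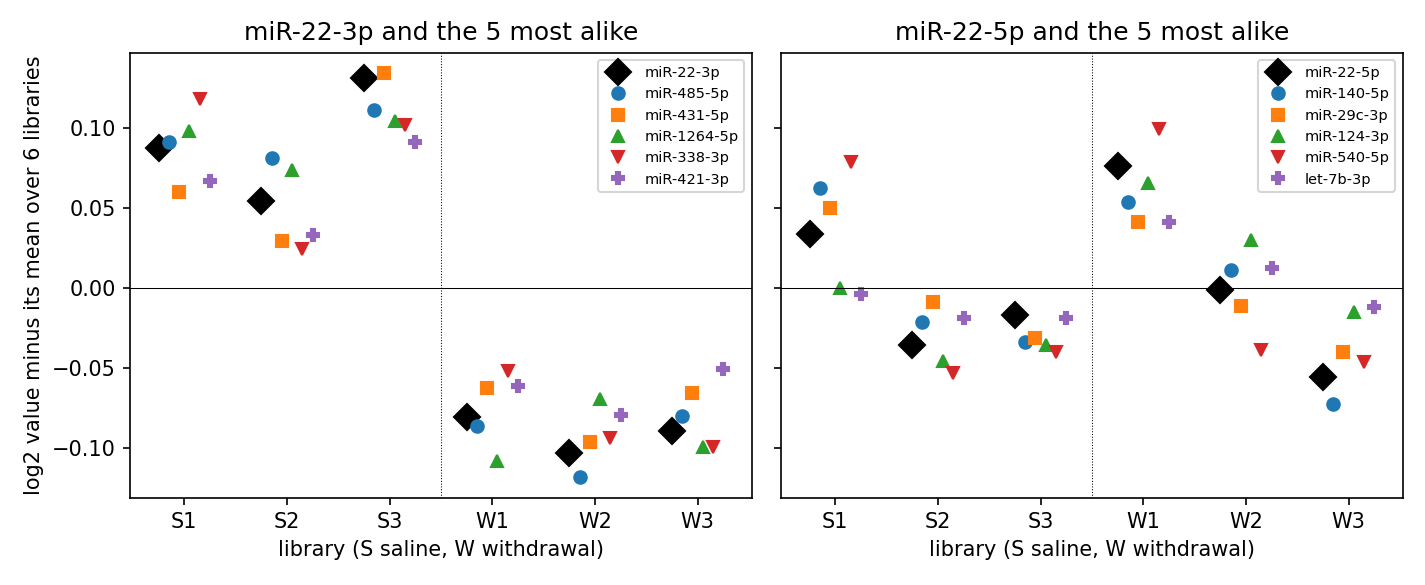
Log2 value minus its own mean over the 6 libraries (y axis) for miR-22-3p (left) and miR-22-5p (right), each with the 5 miRNAs most like it, in saline libraries S1 to S3 and withdrawal libraries W1 to W3. On the left all points are above 0 in saline and below 0 in withdrawal; on the right the groups overlap.

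miRNAs that act on Hdac4, or are linked to the illness in which miR-22 was studied, were counted as lists. Over all miRNAs 3.00% were called higher and 3.58% lower, and with lists this short nothing is read from the counts. Of 9 miRNAs known to act on Hdac4, 2 rose in limma, 0 fell and 7 did not pass, with a median log2 difference of -0.01 against 0.00 over all miRNAs tested. The risers were miR-29b-3p, known for silencing collagens and DNA methyltransferases (0.20 ± 0.04, adjusted p = 0.0157, limma), and the muscle miRNA miR-1a-3p (0.27 ± 0.06, adjusted p = 0.0246, limma). miR-9-5p, the most abundant of them, stood at 0.09 ± 0.03 (limma, adjusted p = 0.156). miR-29b-3p was at 31758, 31850 and 28135 in saline and at 35599, 36139 and 33725 in withdrawal, with no overlap.

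Of 7 miRNAs linked to REST and Huntington disease, miR-29b-3p alone rose and 6 did not pass (median 0.05). miR-29b-3p, miR-9-5p and miR-29a-3p belong to both of these lists and count once in each. The called miR-1a-3p also counts in the muscle list below, and other members recur in the marker lists. The shares of called members are to be read against 3.00% higher and 3.58% lower over all miRNAs.

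Marker miRNAs of several cell types also differed between the groups, and their part in the lower miR-22-3p was not tested. In bulk tissue fewer cells of a type and less of a miRNA per cell cannot be told apart. The summed level of 6 neuronal miRNAs overlapped between saline (3085394 to 3110330) and withdrawal (3025626 to 3094833), and 1 of the 6, miR-138-5p, fell. This sum adds members that differed in opposite directions, 2 of the 6 being negative. In 4 of the 6 the groups did not overlap, beside 27.6% over all miRNAs. The most abundant, miR-9-5p, was higher in each withdrawal library. By contrast, miR-138-5p and miR-128-3p (-0.13 ± 0.04, limma, adjusted p = 0.0543) were lower in each. Of 3 oligodendrocyte miRNAs, miR-338-3p fell (-0.16 ± 0.03, limma, adjusted p = 0.00723), and the other 2 were not called; the list's median was -0.03. Their sum was 104793 to 110978 in saline and 97921 to 100514 in withdrawal. Without miR-338-3p, the most abundant of them, the sums overlapped, at 20565 to 21413 in saline and 20321 to 21697 in withdrawal. Of 2 endothelial miRNAs, miR-126a-3p fell (-0.10 ± 0.03, limma, adjusted p = 0.0347), and the sum was 319628 to 324696 in saline and 303351 to 313594 in withdrawal.

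Among miRNAs listed as markers of blood cells, muscle and epithelia, 6 of 24 tested rose and 1 fell, beside 3.00% higher and 3.58% lower over all miRNAs. Of 3 erythroid miRNAs, miR-486a-5p rose (0.16 ± 0.03, limma, adjusted p = 0.00673). Its reads may be shared with the near-identical miR-486b-5p. The erythroid sum was 109926 to 112805 in saline and 122444 to 125573 in withdrawal. Most of that sum was miR-486a-5p, at 99718 ± 2057 and 111256 ± 1984. Of 5 microglia and leukocyte miRNAs, miR-146a-5p rose (0.19 ± 0.04) and miR-150-5p fell (-0.13 ± 0.03), with limma adjusted p = 0.0156 and 0.0246. The sum of all 5 was 44060 to 45674 in saline and 42863 to 43163 in withdrawal. Most of that sum was miR-150-5p, at 27944 ± 925 and 25559 ± 369. Neither sum was taken without its most abundant member. Of 4 muscle miRNAs miR-1a-3p rose, and the most abundant, miR-133a-3p, was at 5824 ± 44.0 and 5817 ± 121; the sum was 6940 to 7115 in saline and 7049 to 7283 in withdrawal. Of 12 tested miRNAs on the choroid plexus and epithelial list 3 rose (miR-183-5p, miR-182-5p and miR-141-3p), 0 fell and the median was 0.23. Their sum was 100305 to 104214 in saline and 107388 to 108716 in withdrawal. Most of it was miR-204-5p, at 87931 ± 1967 and 92113 ± 1318 (0.07 ± 0.03, limma, adjusted p = 0.156), which was not called. Without it the sum was 13572 to 14013 in saline and 15200 to 16726 in withdrawal. This list joins choroid plexus miRNAs with other epithelial ones, so its 3 calls do not point to choroid plexus. Which cells they came from, and whether they rose independently of each other, was not tested. miR-200c-3p, also on that list, was listed at 0 in saline library 3 and was not tested.

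All calls named here depend on how limma estimates the spread. Without a trend of variance on level 0 miRNAs passed (smallest adjusted p = 0.141, 112 at an unadjusted p under 0.05). The count of 46 became 17 without saline library 2, 21 without saline library 3 and 21 without withdrawal library 2. Of the calls named, that of miR-411-5p passed in 6 of 17 alternative settings, those of miR-30a-5p and miR-150-5p passed in 9 each, and those of miR-153-5p, miR-421-3p, miR-1a-3p and miR-126a-3p in 10. The log2 difference of miR-22-3p stayed between -0.20 and -0.16 when each library was left out in turn, and that of miR-22-5p between -0.02 and 0.04. The difference of miR-22-3p was -0.15 with equal library totals and -0.061 with quantile normalization, and the arm ratio difference, 0.19 as reported, was 0.087 with quantile normalization.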

How the data were processed

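Small RNA libraries (TruSeq) were made from Trizol-extracted RNA of 6 dorsal striatum samples, per the labels' protocols. The table deposited by the authors holds a normalized signal, namely read counts that were scaled with one factor for each library. In the submitters' processing notes the genome build mm9 and the tool DESeq2 are listed without a version; aligner, miRNA annotation and handling of reads shared by similar miRNAs were not given in the sources used here. All values were whole multiples (within 0.01) of a step per library, which was used for depth alone; the smallest positive value was 4 or 5 steps, so a listed 0 may hide lower values, and no count test was run although it had been listed among the alternatives.

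The test covered the 699 of 756 miRNAs that reached 10 in 3 or more libraries, on log2(value + 1) with limma 3.58.1 (R 4.3.3), two-sided, with empirical Bayes moderation, a variance trend on level, Benjamini-Hochberg adjustment over all 699 and a threshold of 0.05. Arm ratios were fitted in limma as log2((5p + 1)/(3p + 1)), without the trend. The code was tested on simulated data. Named miRNAs are both arms, the 3 above and 3 below each in level, the 5 most alike each, and of each list the most abundant member and that with the smallest p; others named were chosen after their values were seen. One list and one target site are not reported here. The members, lists and alternatives were chosen with earlier results of these data known. Sequences came from RefSeq and GENCODE (GRCm38); the table holds no coordinates. Alternatives were other pseudocounts (0.5 and 5), filters, scalings, no trend, a replicate block and the removal of single libraries. ViennaRNA 2.7.2, Python 3.11.15, pandas 2.3.3, numpy 2.4.6 and matplotlib 3.10.9 were also used.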

Additional observations from a re-analysis of the deposited data

How the results depend on the processing

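The log2 difference of miR-22-3p was -0.18, and under the other pseudocounts, filters, median ratios, trimmed mean scaling, the fit without a trend, the rescaling without the most abundant miRNA and the replicate block it moved by less than the spread between replicates. It was -0.15 with equal library totals, which moved the median over all miRNAs to 0.04, and -0.061 with quantile normalization, which sets each rank to one value, so that places exchanged with neighbours fix the size; the arm ratio difference was then 0.087 against 0.19. With one library left out the 3p difference ranged from -0.20 to -0.16, the 5p difference from -0.02 to 0.04 and the arm ratio difference from 0.17 to 0.23. The count of 46 called miRNAs became 22 with quantile normalization, 0 without a trend and 17 to 58 with one library left out. Equal totals turned 21 higher and 25 lower into 46 and 15, and rescaling without the most abundant miRNA into 32 and 16. Of the miRNAs on the fixed lists, 11 were called, 5 with quantile normalization, 0 without a trend and 7 to 13 with one library left out (7 without saline 2, saline 3 or withdrawal 2). Among the 20 most abundant, 4 were called, 2 with a pseudocount of 5, 2 without a filter, 0 without a trend and 2 to 6 with one library left out (2 without saline 2, saline 3, withdrawal 1 or withdrawal 2). Where a count moved, the cause was not tested beyond the construction named. Under the replicate block 106 miRNAs were called (49 higher, 57 lower, all 46 among them), 18 on the lists and 9 among the 20 most abundant. The deviations of libraries with the same number had r = -0.07, 0.09 and 0.04, and for 3 of the 6 the best match was their own number. With 3 libraries per group, this check cannot decide whether libraries of the same number belong together. For 20 named miRNAs that were called, 258 of 340 values in the alternatives stayed past the threshold, 82 did not and 0 changed sign; for the 19 not called, 8 of 322 came past it. Depth limits the 5p arm more than the 3p arm, with counting errors of up to 1.90% and 0.0666%.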
